A study of Bos taurus with 9 samples.

Results

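On a bovine expression array, 99 of 24016 probesets (0.412%) read lower in chromaffin cells given PACAP and higher in chromaffin cells given TNF-alpha than in untreated cells. They were chosen by their own measured values. The difference of mean log2 values between treated and untreated arrays had to be at most -0.4 for PACAP and at least 0.4 for TNF. In addition, each of the 3 PACAP arrays had to be below, and each of the 3 TNF arrays above, the untreated array of the same replicate number. The opposite directions are therefore set by the choice, and the sizes below describe the members without testing them. No measurement independent of that choice was at hand, since all 9 arrays entered it.

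Bovine chromaffin cells were taken from adrenal medulla digested with collagenase, purified by differential plating and kept as primary cultures. In the protocols of the treated samples the medium held serum and cytosine arabinoside. All groups came from primary cultures of the same cell type, untreated cells carrying no protocol of their own in the labels. The groups were 3 arrays of untreated cells, 3 of cells given 100 nM PACAP-38 for 6 h and 3 of cells given 10 nM TNF-alpha for 6 h, so the doses of the 2 agents differed. The series calls the arrays technical repeats and names no separate animals or cultures, so the spread between arrays may be technical.

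PACAP is a peptide transmitter released by the splanchnic nerve onto chromaffin cells, where its receptor PAC1 raises cyclic AMP and calcium and drives catecholamine secretion and neuropeptide transcription. TNF-alpha is an inflammatory cytokine whose receptors activate NF-kappaB and MAP kinase signalling, which switch on genes of inflammation and cell survival. The adrenal medulla thus receives a neural signal through PACAP and an immune signal through TNF, and both act on transcription in chromaffin cells within hours.

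The file pairs no probeset with a gene, and 0 of the probeset IDs, their stems or their cluster numbers occurred in the gene table used here. Members are therefore identified by rank, from 1 to 99 in order of the smaller of their 2 changes, and the gene lists and the markers of chromaffin, cortical, endothelial, immune and other cells could not be applied, so the labelled cell type was not checked. In bulk RNA, fewer cells of a type and less RNA per cell cannot be told apart. Array medians lay between 6.65 and 6.72 (log2). Within each group replicates 1 and 2 correlated across probesets at 0.9962 to 0.9985, and replicate 3 correlated with them at 0.9878 to 0.9904. Replicate 3 thus stood apart in all 3 groups, and values by replicate are given with the results that rest on it.

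The opposite pattern was a small corner of either response. There were 2318 probesets at least 0.4 lower with PACAP, of which the members were 4.3%, and 851 at least 0.4 higher with TNF, of which they were 11.6%. Before the condition on signs 106 probesets met both sizes, and 7 of them were left out by it. The mirrored pattern, higher with PACAP and lower with TNF under the same sizes and signs, held 27 probesets. Changes in the same direction were more numerous, with 457 probesets lower with both agents and 230 higher with both. Both comparisons use the same untreated arrays, which by itself draws their differences in the same direction, and no test was made of these numbers.

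**Figure D1:**
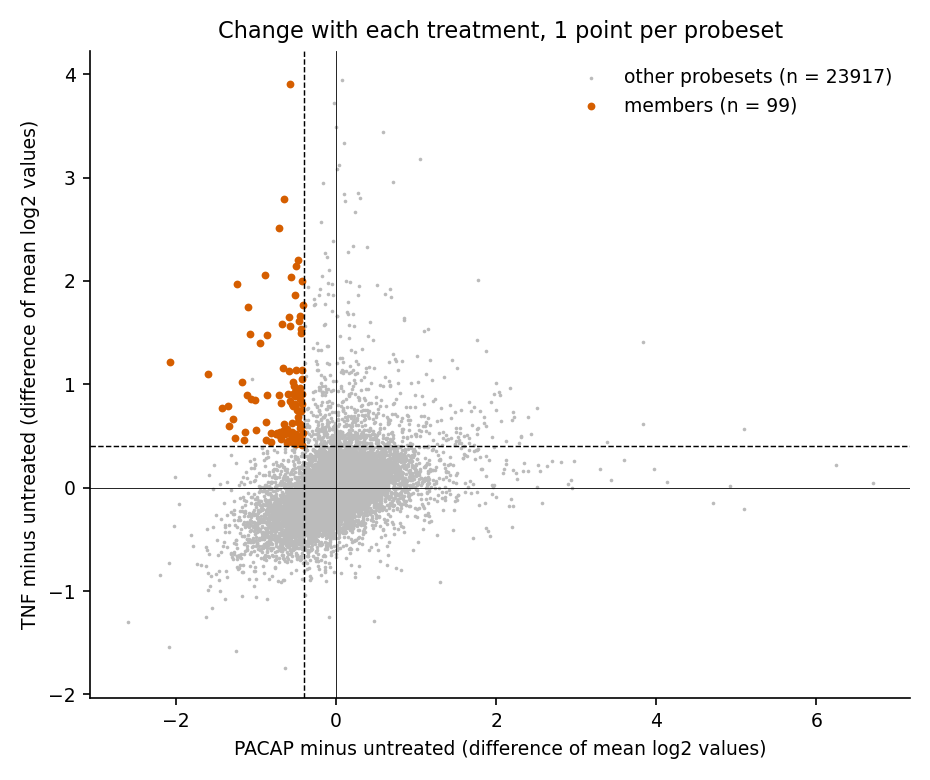
Each point is a probeset, with the PACAP minus untreated difference of mean log2 values on the x axis and the TNF minus untreated difference on the y axis; dashed lines mark -0.4 and 0.4. The 99 members (orange) fill the upper left corner, where most lie close to the PACAP limit while their TNF differences reach 3.91.

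Among the members the TNF side was usually the larger. The median log2 difference was -0.57 with PACAP, or 1.49-fold lower, and 0.81 with TNF, or 1.75-fold higher, against medians of 0.00 and -0.01 over all probesets. The TNF difference was the larger of the 2 in 61 members and the PACAP difference in 38. It was at least 2 times the PACAP difference in 22 members, while the reverse held in 4. The outer quartile of the members began at -0.78 with PACAP and at 1.14 with TNF. The largest differences were 4.21-fold lower and 14.99-fold higher, and they belonged to different members.

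By size the members fell into 4 classes. Both differences were at least 2-fold in 6 members. In 25 others only the TNF difference was at least 2-fold, and in 10 only the PACAP difference was. The remaining 58 were under 2-fold with each agent. Of all 170 probesets at least 2-fold higher with TNF, 31 (18.2%) were members, and of all 221 at least 2-fold lower with PACAP, 16 (7.2%) were. Between the treated groups the median member was 2.71-fold higher with TNF than with PACAP, and 90 members differed at least 2-fold in this way and 26 at least 4-fold. Of the 99 probesets with the largest TNF minus PACAP difference in the whole table, 42 were members, among them the first, at 22.4-fold.

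Log2 values in untreated cells ran from 3.46 to 11.94 among the members, with a median of 7.39 and 69 members above the median of all probesets, 6.71. With PACAP the median was 6.75 and with TNF it was 8.27. A probeset's value depends on its probes as well as on the RNA, so levels of different probesets are not compared as amounts. RMA is known to compress differences between dim probesets, whose folds can therefore be understated. The 33 members lowest in untreated cells had median differences of -0.519 with PACAP and 0.897 with TNF. In the 33 highest these were -0.665 and 0.746. Whether compression bears on these values was not tested.

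**Figure D2:**
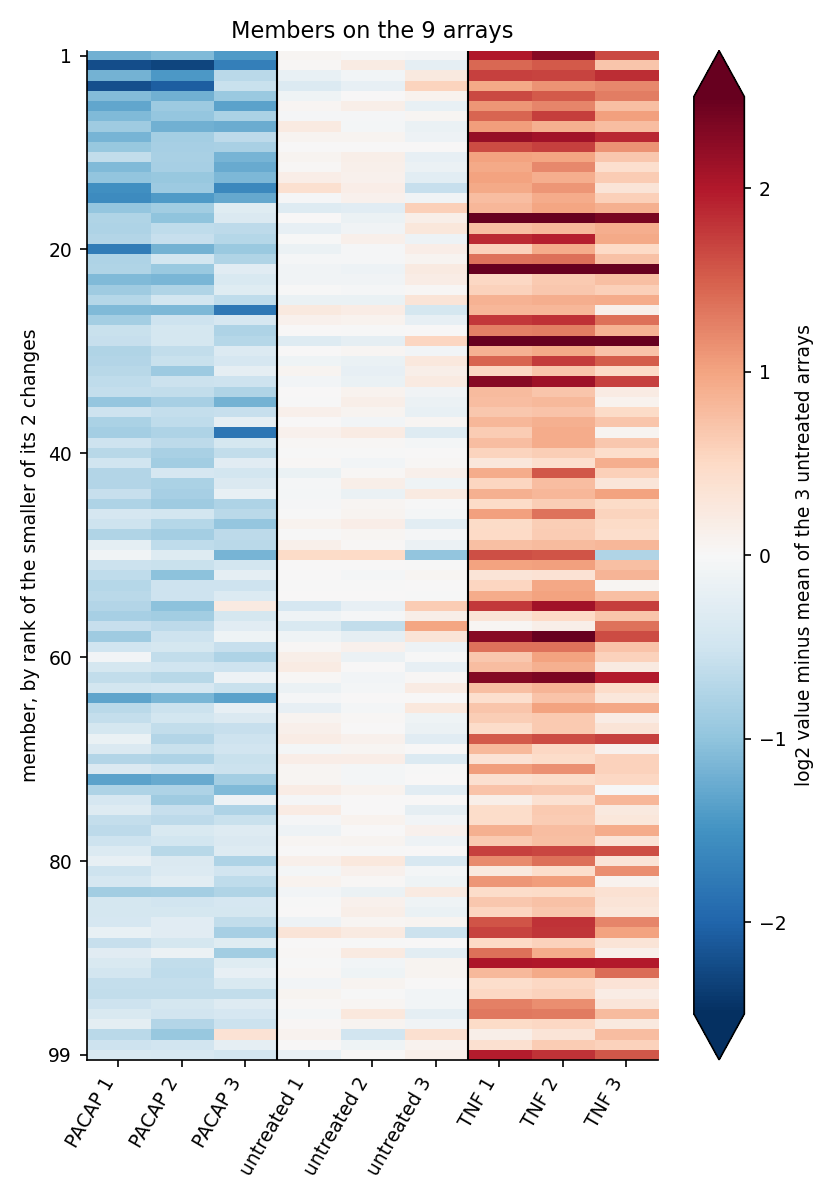
Rows are the 99 members in rank order, columns the 9 arrays, and colour gives the log2 value minus the mean of the 3 untreated arrays of that member; colours are clipped at 2.5 in either direction. Blue PACAP columns and red TNF columns are set by the choice of members, while the strength of the red varies more from row to row than that of the blue, and the replicate 3 columns differ from the other columns of their group.

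The 6 members that were at least 2-fold different with both agents come first. The rank 1 member read 5.34, 5.28 and 5.27 on the untreated arrays, 4.10, 4.19 and 3.89 with PACAP, and 7.29, 7.57 and 6.95 with TNF. Its groups lay far apart compared with the spread inside them, at 2.36-fold lower with PACAP and 3.93-fold higher with TNF. Untreated arrays of the rank 2 member, Bt.25303.1.A1_at, gave 7.52, 7.70 and 7.27, PACAP arrays 5.27, 5.21 and 5.78, and TNF arrays 8.92, 9.03 and 8.18. This was the deepest PACAP difference of all members, from 7.50 ± 0.21 to 5.42 ± 0.32 (log2, SD, n = 3), and its TNF difference was 2.32-fold. Replicate 3 had the highest PACAP value and the lowest TNF value of this member, so both differences were smallest there.

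The members of ranks 3 and 5 carry the same cluster number. For rank 3 the values were 6.33, 6.44 and 6.76 untreated, 5.32, 5.08 and 5.83 with PACAP, and 8.22, 8.19 and 8.34 with TNF. For rank 5 they were 9.14, 9.26 and 9.35 untreated, 8.17, 8.05 and 8.32 with PACAP, and 10.90, 10.79 and 10.52 with TNF. In both members the 3 groups were separate. The PACAP differences were -1.10 and -1.07 and the TNF differences 1.74 and 1.49 (log2), so the PACAP differences were nearly equal and the TNF difference was larger at rank 3.

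Rank 4, Bt.9296.1.A1_at, had the next deepest PACAP difference, 3.04-fold lower. It read 8.73, 8.87 and 9.62 untreated, 6.88, 7.02 and 8.51 with PACAP, and 10.03, 10.21 and 10.28 with TNF. Replicate 3 was the highest array in every group, and the PACAP group had a wide spread, at 7.47 ± 0.91 (SD, n = 3). Rank 6 gave 7.17, 7.27 and 6.94 untreated, 5.83, 6.22 and 5.78 with PACAP, and 8.23, 8.34 and 7.87 with TNF. There replicate 3 was the lowest array of each group, the opposite of rank 4, and the groups were still apart, at 2.26-fold lower and 2.03-fold higher.

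In ranks 7 to 12 the smaller of the 2 differences was just under 2-fold, from 1.81-fold to 1.93-fold. The rank 7 member stood at 7.06, 7.06 and 7.13 in untreated cells, at 5.98, 6.12 and 6.30 with PACAP and at 8.54, 8.81 and 8.10 with TNF. At rank 8 the readings were 7.01, 6.73 and 6.61, then 5.89, 5.58 and 5.54 with PACAP, and 7.82, 7.67 and 7.55 with TNF. These members leaned to opposite sides, rank 7 with the larger TNF difference (1.40 against -0.95) and rank 8 with the larger PACAP difference (-1.11 against 0.90). Rank 9 leaned further to TNF, from 6.10, 6.10 and 5.92 untreated to 4.88, 5.19 and 5.38 with PACAP and 8.21, 8.15 and 7.93 with TNF, a 4.16-fold higher mean. Rank 10 was alike on all 3 untreated arrays, at 7.44 each, with 6.50, 6.61 and 6.63 under PACAP and 9.07, 9.15 and 8.56 under TNF. Its 3 untreated values were identical as given, at 7.443, and how far that reflects the precision of the measurement was not tested. The treated groups of rank 10 were 1.82-fold lower and 2.79-fold higher.

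Rank 11 was nearly symmetric, with log2 differences of -0.86 and 0.89. Its arrays read 7.10, 7.17 and 6.82 untreated, 6.41, 6.22 and 5.87 with PACAP, and 8.03, 8.02 and 7.71 with TNF. Rank 12 read 8.58, 8.68 and 8.41 untreated, 7.46, 7.72 and 7.30 with PACAP, and 9.499, 9.76 and 8.98 with TNF. The groups of both members were separate on all arrays, and within each group replicate 3 was the lowest.

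**Figure D3:**
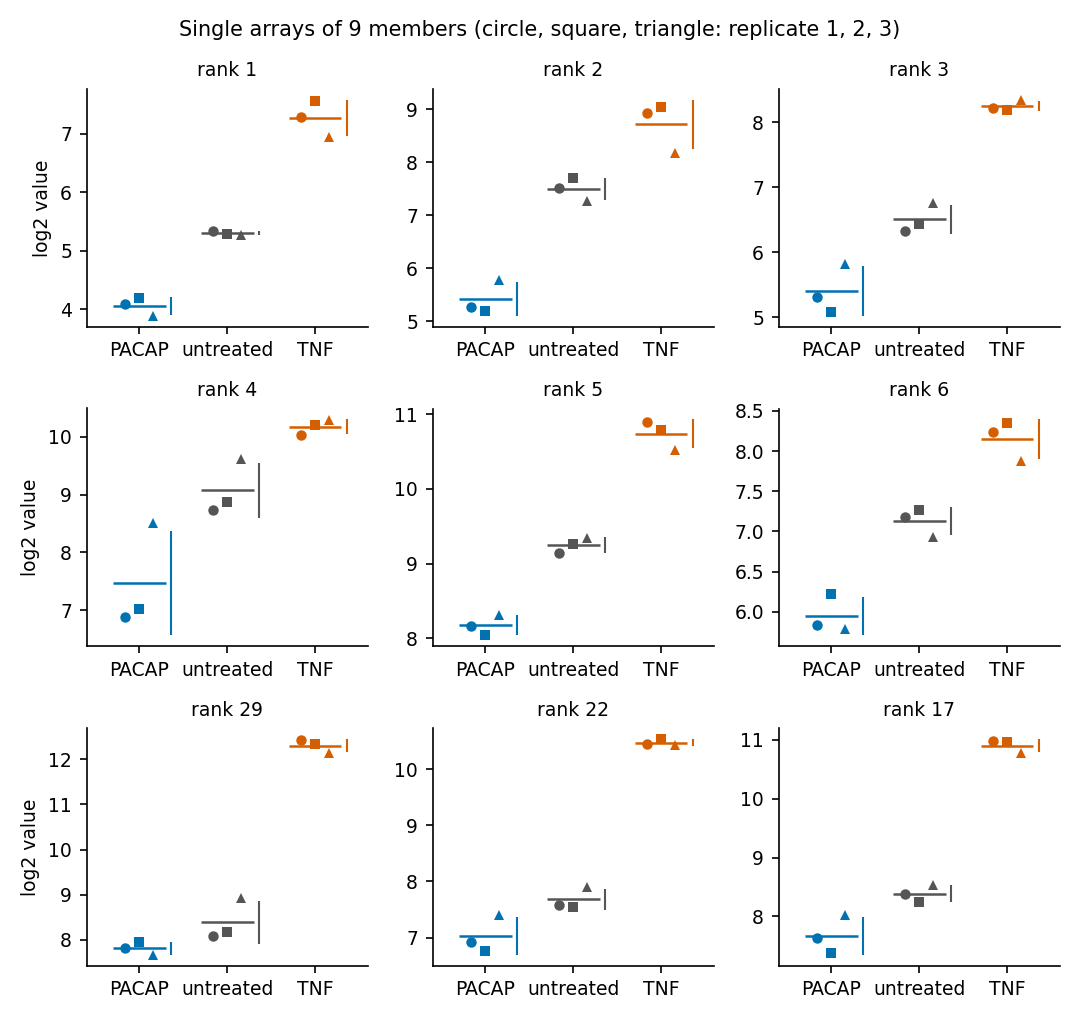
Panels show the log2 values of 9 members, namely ranks 1 to 6 and the 3 members with the largest TNF difference (ranks 29, 22 and 17); symbols are single arrays, horizontal lines group means and vertical bars the SD (n = 3), and each panel has its own scale. PACAP lies below and TNF above untreated on every array of these members, and rank 29 shows the largest step, between 8.39 untreated and 12.30 with TNF.

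The largest TNF differences went with moderate PACAP differences. The rank 29 member, Bt.4310.1.A1_at, read 8.08, 8.16 and 8.94 untreated, 7.82, 7.96 and 7.67 with PACAP, and 12.43, 12.34 and 12.13 with TNF. Its TNF mean was 14.99-fold higher than untreated and its PACAP mean 1.49-fold lower. It was not called lower with PACAP by the linear model fitted to all probesets (limma). Its untreated replicate 3 array was 0.81 above the mean of replicates 1 and 2, and without it the PACAP difference was -0.31 in place of -0.58, short of the limit. Rank 22, Bt.3841.1.S1_at, had 7.59, 7.55 and 7.90 untreated, 6.92, 6.76 and 7.40 with PACAP, and 10.44, 10.54 and 10.43 with TNF, or 6.94-fold higher. Rank 17 followed with 8.39, 8.24 and 8.53 untreated, 7.63, 7.38 and 8.02 with PACAP, and 10.98, 10.95 and 10.77 with TNF, or 5.71-fold higher. These TNF groups were tight, with SDs of 0.15, 0.06 and 0.12 (log2), and no array of any group overlapped another group.

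Ranks 62 and 58 had a TNF difference of over 4-fold beside a PACAP difference near the limit. Rank 62 went from 7.05, 6.95 and 7.05 untreated to 6.40, 6.32 and 6.90 with PACAP and 9.31, 9.38 and 8.997 with TNF. Its PACAP replicate 3 array lay just below the lowest untreated array. Rank 58 read 5.34, 5.22 and 5.78 untreated, 4.55, 4.92 and 5.35 with PACAP, and 7.72, 7.97 and 7.08 with TNF. There the PACAP replicate 3 array stood above 2 untreated arrays, so PACAP and untreated overlapped, while TNF was 4.41-fold higher with no overlap. Neither rank 62 nor rank 58 was called lower with PACAP, and without PACAP replicate 1 the PACAP difference of rank 58 was -0.31 in place of -0.51.

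On the PACAP side the deepest differences after ranks 2 and 4 were those of ranks 15, 14 and 26. Rank 15 gave 8.46, 8.59 and 8.40 untreated, 6.91, 7.06 and 7.21 with PACAP, and 9.27, 9.42 and 9.08 with TNF. Its groups were tight and separate, at 2.68-fold lower and 1.70-fold higher. Rank 14 ranged from 7.35, 7.11 and 6.35 untreated to 5.41, 6.03 and 5.32 with PACAP and 7.89, 8.04 and 7.26 with TNF. The TNF replicate 3 array lay below the untreated replicate 1 array, so these groups overlapped although the same-numbered arrays differed in the required direction. Without untreated replicate 3 its TNF difference was 0.50 in place of 0.79. Rank 26 read 11.70, 11.62 and 11.02 untreated, 10.35, 10.33 and 9.65 with PACAP, and 12.28, 12.28 and 11.58 with TNF. Each replicate 3 array was lower than both others of its group, and TNF overlapped untreated through replicate 3, while over replicates 1 and 2 the groups were separate. Without untreated replicate 3 its TNF difference was 0.38 in place of 0.60, and limma called neither rank 14 nor rank 26 higher with TNF.

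The 4 members with the highest untreated values were rank 26 and ranks 52, 36 and 78, and the latter 3 had smaller PACAP differences than rank 26. Bright members did not have smaller PACAP differences in general. The median was -0.665 in the 33 members highest in untreated cells, -0.55 in the middle 33 and -0.519 in the lowest 33. Rank 52 read 11.94, 11.88 and 11.99 untreated, 11.29, 10.90 and 11.71 with PACAP, and 12.27, 12.30 and 12.79 with TNF. Rank 36 read 10.86, 10.80 and 10.54 untreated, 10.22, 10.15 and 10.16 with PACAP, and 11.42, 11.44 and 11.22 with TNF. Rank 78 had 10.52, 10.54 and 10.34 untreated, 9.94, 10.01 and 10.10 with PACAP, and 11.12, 11.22 and 10.81 with TNF. All 3 had separate groups, with differences of 1.37-fold to 1.55-fold lower and 1.43-fold to 1.54-fold higher. Rank 52 was called neither lower with PACAP nor higher with TNF by limma. Among the members described before, ranks 4 and 12 were also not called higher with TNF.

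The members just inside and just outside the limits differed little. Inside, the PACAP differences nearest to -0.4 were -0.410, -0.411 and -0.423, and the next ones outside were -0.391, -0.388 and -0.383 with TNF differences of 0.65, 1.21 and 1.56. On the TNF side the nearest members stood at 0.412, 0.420 and 0.429, and the nearest probesets outside at 0.395, 0.383 and 0.363. The limits therefore cut through a continuous range. With a limit of 0.3 there were 139 probesets, with 0.5 there were 59, and with 1 there were 6.

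In most members the 3 groups did not overlap at all. All PACAP arrays were below all untreated arrays, and these below all TNF arrays, in 82 members, a pattern held by 0.854% of all probesets. PACAP lay wholly below untreated in 88 members (16.8% of all probesets) and TNF wholly above untreated in 89 (6.52%). These arrays chose the members, so the excess over the background is built in. Of the 17 members with an overlap, 7 overlapped only between PACAP and untreated, 6 only between TNF and untreated, and 4 on both sides. The lowest TNF array was replicate 3 in 8 of the 10 members where TNF overlapped untreated, and the highest PACAP array was replicate 3 in 5 of the 11 where PACAP did. With 2 arrays a group the groups were separate in 97 members without replicate 3 (4.20% of all probesets), in 87 without replicate 1 (1.65%) and in 85 without replicate 2 (1.42%).

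The linear model fitted to all probesets (limma, Benjamini-Hochberg adjusted p under 0.05) called 66 members lower with PACAP, a call made for 8.49% of all probesets. It called 56 members higher with TNF (1.33% of all) and 96 lower with PACAP than with TNF (5.10% of all). Both treatment calls held for 40 members (0.192% of all). Another 26 were called with PACAP alone, 16 with TNF alone and 17 with neither. Over all probesets, the calls with 1 agent alone are the 8.49% and the 1.33% above, each less the 0.192% with both. Because the same values chose the members, these counts describe the members and add no support. The series calls the arrays technical repeats, so the spread behind the adjusted p-values may be technical and not that between cultures. With the replicate number as a block, the members called were 83 lower with PACAP, 84 higher with TNF, 73 with both calls and 99 between the treatments. The block assumes pairs by replicate number, which were not shown for numbers 1 and 2. With it, calls rose over all probesets too, to 12.7%, 2.81%, 0.371% and 8.47% of them. Leaving out 1 array moved these counts, and the share of all probesets called in the same fit stands beside each. Dropping untreated replicate 1 gave 35 PACAP calls among the members (4.31% of all probesets), dropping untreated replicate 2 gave 37 (4.10%) and dropping PACAP replicate 2 gave 41 (4.79%). TNF calls were 28 members when untreated replicate 1 (0.483% of all) or untreated replicate 2 (0.450%) was dropped. Dropping TNF replicate 1 gave 26 TNF calls (0.516% of all) and dropping TNF replicate 2 gave 24 (0.446%). Both calls held for 14 members when untreated replicate 1 (0.0625% of all) or untreated replicate 2 (0.0583%) was left out. Dropping TNF replicate 1 left 18 such members (0.0874%) and dropping TNF replicate 2 left 17 (0.0750%). Dropping PACAP replicate 1 left 26 (0.117%) and dropping PACAP replicate 2 left 25 (0.108%). Dropping TNF replicate 3 raised the count to 61 (0.325%).

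The median difference of the members was smallest in replicate 3 with both agents. Median PACAP differences were -0.64, -0.67 and -0.53 (log2) in replicates 1, 2 and 3, and median TNF differences were 0.85, 0.92 and 0.67. Replicate 3 had the lowest TNF difference in 76 members (76.8%), against 35.9% of all probesets. It had the highest PACAP difference in 57 members (57.6%), against 38.5% of all. Signs counted in this ordering. In the members these are the differences nearest to 0, while over all probesets, where both signs occur, they need not be. In 35 members both differences passed the size of 0.4 in each of the 3 replicates, and 51 did so for PACAP and 66 for TNF.

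The TNF replicate 3 array was below the mean of TNF replicates 1 and 2 in 78 members (78.8%), against 42.0% of all probesets, with a median shift of -0.26. The untreated replicate 3 array was below its counterparts in 51 members, with a median shift of -0.01, and the PACAP replicate 3 array in 40, with a median shift of 0.10. On TNF replicate 3 the mean 3' minus 5' difference of 5 added control transcripts was 1.22 (log2), against 0.80 to 0.97 on the other 8 arrays. Whether this labelling measure bears on the smaller TNF differences was not tested.

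**Figure D4:**
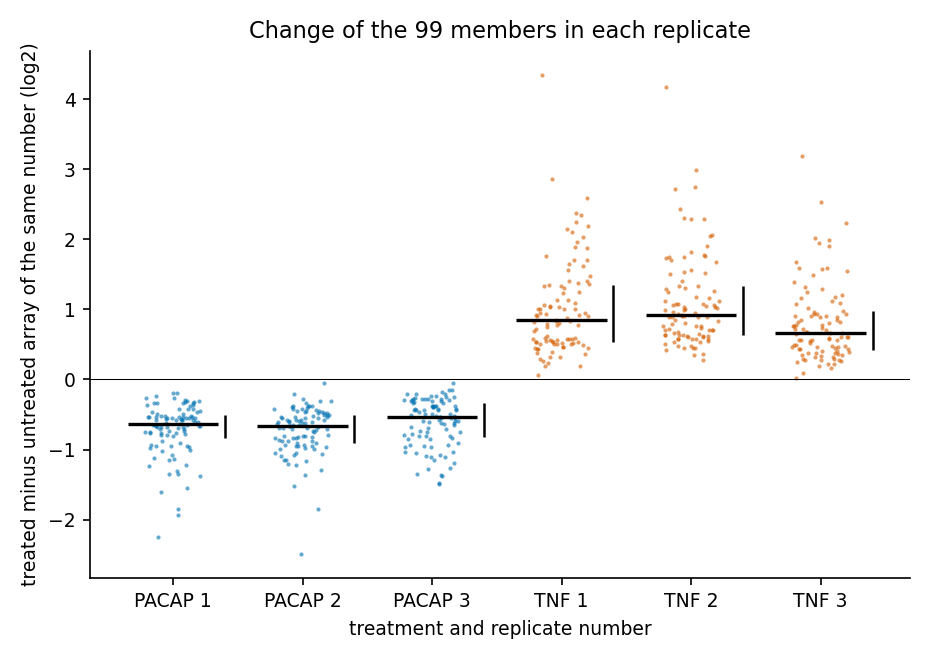
Points are the 99 members, with the treated minus untreated difference between arrays of the same replicate number on the y axis (log2); black lines are medians and vertical bars the quartiles. All PACAP points are below 0 and all TNF points above 0 by the choice of members, and the TNF median is 0.67 in replicate 3 against 0.85 and 0.92 in replicates 1 and 2.

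Replicate 3 was below the mean of replicates 1 and 2 in all 3 groups in 28 members and above it in all 3 groups in 16. Over all probesets the order was reversed, with 17.2% below and 24.3% above. The shift came to at least 0.5 in all 3 groups in 4 members, of ranks 26, 50, 87 and 97. Rank 50 had the widest one, from 5.46, 5.49 and 4.01 untreated to 4.90, 4.66 and 3.83 with PACAP and 6.59, 6.56 and 4.23 with TNF. In replicates 1 and 2 its TNF arrays were over 1 above untreated, while in replicate 3 all 3 groups lay together near the low end of the scale. Rank 97, the member nearest the TNF limit, read 6.09, 5.52 and 6.40 untreated, 5.32, 5.07 and 6.36 with PACAP, and 6.15, 6.32 and 6.78 with TNF. Its PACAP difference was -0.04 in replicate 3, against -0.77 and -0.46 in replicates 1 and 2. Its PACAP replicate 3 array was above 2 of its TNF arrays, so that even the treated groups overlapped. When the same rule was applied without replicate 3, 128 probesets met it, of which 87 were members; without replicate 1 there were 94, with 87 members, and without replicate 2 there were 81, with 78 members.

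Probeset IDs of this array carry the number of the sequence cluster from which the probes were designed, so probesets that share it were meant for the same or related transcripts. The 99 members fell into 94 cluster numbers, of which 5 held 2 members each. The members of each pair differed in the second number of the ID, which marks another sequence of the cluster. Their ranks were 1 and 94, 3 and 5, 8 and 47, 9 and 27, and 21 and 28. Ranks 21 and 28 were close, with PACAP differences of -0.66 and -0.59 and TNF differences of 1.15 and 1.13. Ranks 9 and 27 gave -0.89 and -0.59 with PACAP and 2.06 and 1.65 with TNF. Ranks 1 and 94 were the least alike, at -1.24 and -0.43 with PACAP and 1.97 and 0.91 with TNF. Members of 1 cluster number are not independent of each other, so the 99 probesets stand for at most 94 clusters.

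A further 29 probesets outside the rule shared a cluster number with a member, in 24 of the 94 clusters. Their median difference was -0.22 with PACAP and 0.61 with TNF. Of these 29, 24 (82.8%) had the signs of the members, below 0 with PACAP and above 0 with TNF, against 12.6% of all probesets that were not members. Their TNF differences came nearer to those of the members than their PACAP differences did. The cluster of rank 17 held a probeset at -0.11 and 2.23, and that of rank 22 one at -0.09 and 2.11, so that their TNF difference was above 4-fold and their PACAP difference close to 0. Both were dimmer than the member, with untreated means of 5.478 against 8.385 for rank 17 and 6.083 against 7.679 for rank 22. The median untreated mean of the 29 was 5.94, against 7.39 in the members. Whether the lower level bears on their PACAP differences was not tested. In the cluster of ranks 9 and 27, a probeset gave -0.27 and -0.13, without the TNF difference. These probesets were measured on the same arrays, so their values describe other probes on the same RNA.

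**Figure D5:**
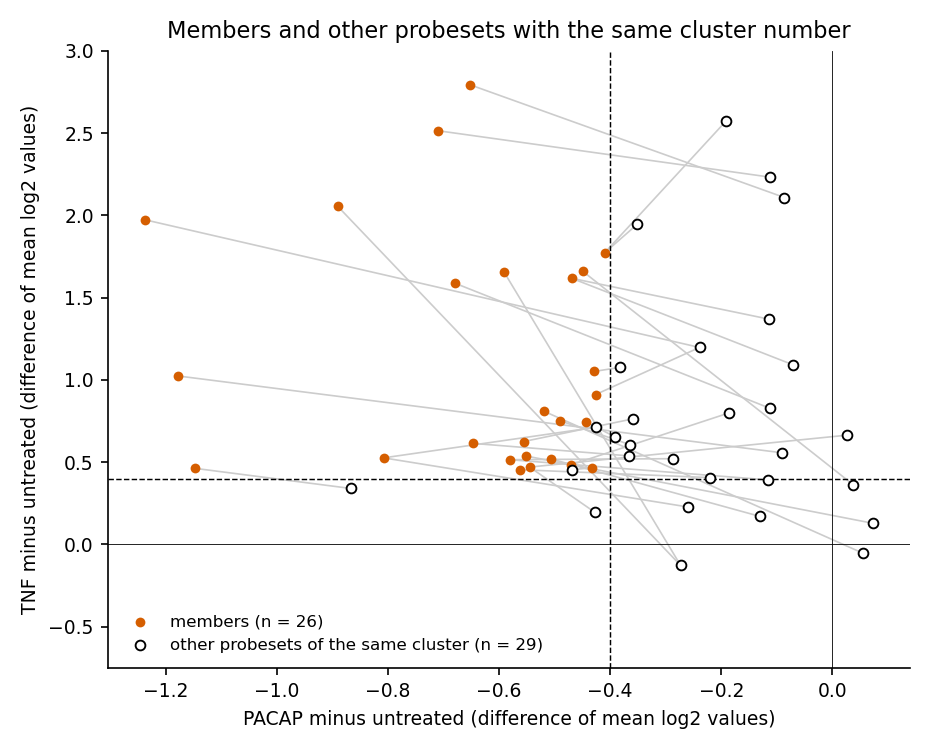
Orange points are the 26 members whose cluster number occurs in probesets outside the rule, open points are those 29 probesets, and grey lines join probesets of the same cluster; axes are differences of mean log2 values from untreated, and dashed lines mark -0.4 and 0.4. Most open points lie to the right of the PACAP limit but above 0 on the TNF axis.

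By probe type the members had nearly the same shares as the whole array. Of the 99, 93 (93.9%) had IDs with the plain ending for a single target, against 93.3% of all probesets. There were 5 with the ending for several transcripts of the same gene (5.1%, against 5.3%), 1 with the ending for probes shared between genes (1.0%, against 1.0%) and 0 with the ending for probes that can bind unrelated sequences (0.4% of all).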

How the data were processed

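Each probeset has 1 deposited log2 value per array, which the authors obtained with Affymetrix Expression Console and RMA, per the submitters' processing notes. No version or setting was named. Arrays were grouped and numbered from their titles. The 112 control probesets were left out and 24016 tested. Members, limits and lists were chosen with earlier results of these data known. Group means were fitted to all 9 arrays with limma 3.58.1 in R 4.3.3 (6 residual degrees of freedom, two-sided), with Benjamini-Hochberg adjustment within each contrast over all probesets. The procedure was tested on simulated data with independent noise on each array and planted changes larger than those of most members. That test does not cover smaller changes or deviations shared between arrays of the same number. Folds are 2 raised to a difference of mean log2 values. Probesets described singly were the 12 with the largest smaller change, the 5 with the deepest PACAP and the 5 with the largest TNF difference, and the 4 with the highest untreated value; others were singled out after their values were seen. Deviations from group means correlated at 0.226 to 0.652 between same-numbered arrays of different groups, all above 0.1, so the numbers were taken as pairs and a fit with the replicate block was run. Arrays numbered 1 and 2 in different groups also correlated with each other, at 0.095 to 0.606. Replicate 3 correlated with them at -0.656 to -0.183. Only replicate 3 was thus set apart, and a pairing within numbers 1 and 2 was not shown. The number of arrays limits the precision. Alternatives were other normalizations, filters on dim probesets, other limits, an intensity trend, fits of 6 arrays and leaving out arrays.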

Additional observations from a re-analysis of the deposited data

How the results depend on the processing

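The number of members was 59 with a limit of 0.5 and 6 with a limit of 1; it ran from 81 to 128 when arrays or replicate numbers were left out, and from 85 to 139 under the other settings (3 normalizations, the filter on dim probesets, a limit of 0.3, no condition on signs and group medians). Leaving out single arrays moved the members called lower with PACAP between 35 (4.31% of all probesets in the same fit) and 82 (9.96%). Those called higher with TNF moved between 24 (0.446%) and 68 (1.77%). Those with both calls moved between 14 (0.0625% or 0.0583%, in 2 fits) and 61 (0.325%). The shares over all probesets thus moved with the counts. With the replicate block both calls held for 73 members and for 0.371% of all probesets, against 40 and 0.192% without it; the block moved no other count of members by over 1.5 times. Members called lower with PACAP than with TNF stayed within 1.5 times of 96 in every setting run. The share of all probesets so called ran from 2.62% to 8.47% in the fits with the block or without 1 array. Of 598 recomputed changes of the 23 members chosen by the naming rule, 554 moved by less than the SD of the 3 same-numbered differences, 44 moved by more and 0 turned sign. Part of the 598 could not move. The block leaves differences of group means unchanged, and dropping an array of 1 agent leaves the other agent's difference unchanged. The count of 554 therefore overstates how stable the changes were. The settings for both calls, for the median changes and for groups without overlap were added after the data were seen. Causes of these changes were not tested. No detection calls were used, so a member near the low end of the scale has no separate limit of detection here.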

Other observations

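Probesets beside the rule showed the same opposite pattern in part. Of the 46 probesets that limma called both lower with PACAP and higher with TNF (adjusted p under 0.05), 40 were members, and the other 6 had TNF differences of 0.47 to 1.56 (log2) and PACAP differences of -0.38 to -0.29, short of the limit of -0.4. Of the 7 probesets that met both sizes but not the condition on signs, 1 had differences of -1.06 with PACAP and 1.05 with TNF, singled out after its values were seen. It read 8.97, 8.96 and 7.50 untreated, 7.47, 7.18 and 7.61 with PACAP, and 9.92, 9.84 and 8.81 with TNF. In replicates 1 and 2 it was over 2-fold lower with PACAP, while in replicate 3 the untreated array was as low as the PACAP array.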
